A study of Mus musculus with 52 samples.

Results

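The 10 immediate early genes described here are Fos, Fosb, Jun, Junb, Atf3, Egr1, Egr2, Nr4a1, Ier2 and Dusp1, and they were followed in RNA-seq of wild-type mice and mice lacking the Tug1 long noncoding RNA locus. They were chosen by gene symbol, and each had 1 row among the 34865 genes listed for testes and 1 row in each of the other 7 tissues. The knockout allele, Tug1 tm1.1Vlcg, carries a lacZ cassette in place of the gene body, with the promoter and first exon retained. The samples of this series are labelled male, and the ages of the mice that gave the tissues are not given in the sources used here. Wild-type and Tug1-/- prostate (3 and 2 samples), heart, liver, spleen, eyes and mouse embryonic fibroblasts (MEFs, 3 samples per genotype) carried a C57BL/6J/129S6 background without the neomycin cassette, and the MEFs were taken at passage 2 from littermate embryos of midgestation. Testes came from 4 wild-type, 4 Tug1-/- and 3 rescue mice. The rescue mice were Tug1-/-, carried the tg(Tug1) transgene together with CAGs-rtTA3, and were kept on doxycycline food, so that the transgene was switched on. By the labels the wild-type testes carried no Neo whereas the Tug1-/- and rescue testes carried Neo and LacZ, so that, if the labels hold, cassette and genotype cannot be told apart in testes. The study's methods describe a knockout colony bred free of the neomycin gene, which the labels of these testes do not match. The transgene integrated at random in 2 founder males, and the isoform it encodes lacks the 5′ region. Brain, also listed for both genotypes, came from an existing data set with no samples in this series, so its sex and number of samples are not given here.

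Immediate early genes are switched on within minutes of a stimulus such as a growth factor, neuronal activity or cell stress, without the need for new protein. Their promoters are read by serum response factor with its ternary complex partners, downstream of ERK signalling, and by CREB, which binds the cyclic AMP response element (CRE). Most of the products are transcription factors that pass the signal on to later genes, and others, such as the phosphatase Dusp1, shut the signal off, and both transcripts and proteins are short-lived.

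The promoters of Fos, Nr4a1 and Egr2 are shown because, among the genes with a window here, the ratios furthest from 0 described below were in these 3. RefSeq promoter windows (build GRCm38.p6, 250 bases before to 50 after a start site) were matched by symbol for 8 of the 10 genes. Only the 250 bases before each start are printed. Capitals mark the CRE core TGACG (read as CGTCA on the other strand), the TATA motif TATAAA, the EGR motif GCGNGGGCG and the CArG box, which serum response factor binds, on either strand. The Fos window lies at chr12:85473640-85473889, the Nr4a1 window at chr15:101266596-101266845 and the Egr2 window at chr10:67537619-67537868, all on the plus strand. Egr2 has 5 RefSeq windows, of which 4 hold a CArG box, and the one shown ends inside the annotated gene (chr10:67535475-67542188).
Fos: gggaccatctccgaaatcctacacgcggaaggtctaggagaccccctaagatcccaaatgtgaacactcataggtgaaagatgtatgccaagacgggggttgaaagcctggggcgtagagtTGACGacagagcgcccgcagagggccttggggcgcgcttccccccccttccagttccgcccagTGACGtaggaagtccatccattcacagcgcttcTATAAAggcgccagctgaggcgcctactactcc
Nr4a1: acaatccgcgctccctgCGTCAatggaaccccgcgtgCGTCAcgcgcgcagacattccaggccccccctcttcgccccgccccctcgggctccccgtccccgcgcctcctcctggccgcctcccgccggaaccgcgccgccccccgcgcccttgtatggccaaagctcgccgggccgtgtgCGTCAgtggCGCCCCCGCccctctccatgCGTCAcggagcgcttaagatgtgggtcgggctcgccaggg
Egr2: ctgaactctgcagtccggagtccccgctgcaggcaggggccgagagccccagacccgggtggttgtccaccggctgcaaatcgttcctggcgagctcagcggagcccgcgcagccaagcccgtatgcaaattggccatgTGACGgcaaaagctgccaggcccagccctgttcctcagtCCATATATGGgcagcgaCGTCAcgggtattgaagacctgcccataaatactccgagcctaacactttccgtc

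The Fos window held CRE cores starting at -129 and -66 and the TATA motif at -33, counted from the start site. The Nr4a1 window held 4 CRE cores, at -233, -213, -69 and -40, with an EGR motif at -60. The Egr2 window held a CArG box at -72 between CRE cores at -111 and -55. Over whole windows, 7 of the 8 genes held a CRE core, against 20.9% of all 32544 distinct promoter windows of the same length. The EGR motif was found in 2 of the 8 genes (5.60% of all windows), the TATA motif in 2 (13.6%), the CArG box in 1 (1.64%), the full CRE TGACGTCA, which contains the core, in 1 (Dusp1, 1.80%) and the AP-1 motif TGANTCA in 0 (7.79%). The GC box GGGCGG, which can overlap the EGR motif, was found in 7 (35.9%) and is not in capitals. A gene was counted if any of its windows held the motif, whereas the background is per window. Without Egr2, the gene with 5 windows, the counts were 6 of 7 genes for the CRE core, 6 of 7 for the GC box, which in Egr2 lies in windows other than the one shown, and 0 of 7 for the CArG box. These matches describe letters in the window and were not tested as binding sites.

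The 10 genes are compact. Their median annotated length was 4698 bp, against 20129 bp over the 19438 protein-coding genes listed for testes, and 9 of 10 were under 10000 bp. Atf3, at chr1:191170296-191218039, was the exception at 47744 bp. Ier2 (chr8:84661331-84662852) and Junb (chr8:84974484-84978718), both on the minus strand, lie 311631 bp apart, and the others lie on separate chromosomes.

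Expression was deposited as the mean over each group in TPM, a share of transcripts corrected for gene length, so levels of different genes can be set side by side. The tables used hold no values of single samples, and the errors and p-values that the authors deposited for their own comparisons were not used here. The values below are therefore described without a test or a replicate error, and neither the order of levels nor any difference between groups is shown to exceed the spread between samples. Testes and the other tissues were in separate tables. Ratios are Tug1-/- over wild type, or rescue over Tug1-/-, on the scale log2(TPM + 0.1). A gene is called higher or lower when its ratio passes 1.5-fold and at least 1 of its 2 means reaches 1 TPM. In whole tissue, fewer cells expressing a gene and less RNA per cell cannot be told apart. The means of 8 lists of tissue markers were each highest in the tissue they mark, in both genotypes. Some also differed between genotypes at low levels in other tissues. The 3 liver genes had a summed mean of 20.7 TPM against 1.14 TPM in wild-type and Tug1-/- spleen, with 3 of 3 called lower, and of 8.22 and 62.8 TPM in prostate and 40.0 and 181.6 TPM in eyes, with 1 called higher in each. The 3 spleen genes had 19.6 and 9.60 TPM in heart, with 2 of 2 called lower. Their part in the ratios of the 10 genes in these tissues was not tested. Tug1 RNA was 2.21% of the wild-type mean in Tug1-/- testes and at most 0.512% in the other 7 tissues.

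In wild-type tissue the 10 genes had distinct profiles. Fos was highest in brain at 65.3 TPM, followed by eyes at 50.4 TPM, and lowest in testes at 0.751 TPM. Egr1 was also highest in brain, at 188 TPM, the highest level of any of the 10 genes in any wild-type tissue, and lowest in testes at 3.40 TPM. Nr4a1 had the flattest profile, from 114 TPM in brain to 18.7 TPM in liver. The brain thus led for Fos, Fosb, Egr1 and Nr4a1.

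Jun, Junb and Egr2 were instead highest in MEFs. Jun had 100.2 TPM and Junb 112 TPM there. Egr2 had 19.7 TPM in MEFs and 10.3 TPM in brain, and 0.0826 TPM in liver. The remaining genes each led in a different tissue: Ier2 in spleen (93.6 TPM), Dusp1 in heart (73.1 TPM) and Atf3 in prostate (51.3 TPM). Testes held the lowest wild-type level of 7 of the 10 genes, the exceptions being Fosb, Egr2 and Nr4a1, which were lowest in liver.

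**Figure D1:**
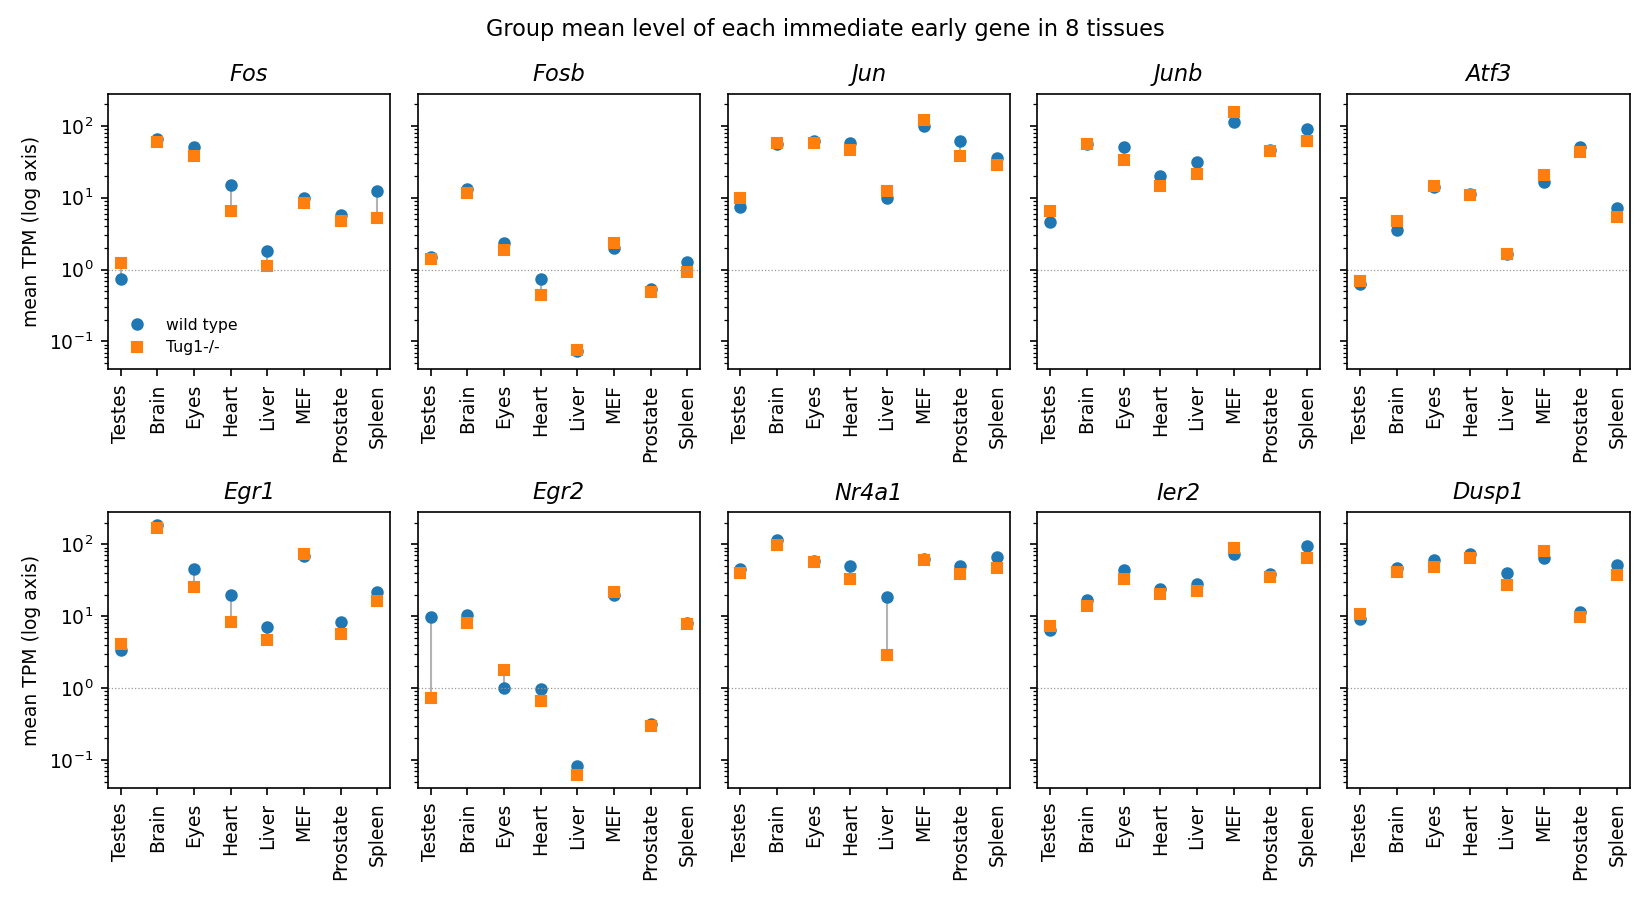
Group mean TPM (log axis) of each gene in 8 tissues, with wild type as circles, Tug1-/- as squares and a line joining the 2 means; the dotted line marks 1 TPM. The points are group means and no error bars are drawn. The widest gaps are Egr2 in testes (9.77 and 0.734 TPM) and Nr4a1 in liver (18.7 and 2.90 TPM).

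Across 80 pairs of a gene and a tissue, 73 reached 1 TPM in at least 1 genotype, and of these 9 were called lower and 2 higher in Tug1-/-. The lower calls were Egr1, Fos and Nr4a1 in heart, Nr4a1 and Fos in liver, Fos in spleen, Egr1 in eyes, Jun in prostate and Egr2 in testes. The higher calls were Fos in testes and Egr2 in eyes. Both of the latter, and Egr2 in testes, reached 1 TPM only in the genotype in which they were high, so that these 3 pairs could pass that minimum only by differing.

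The share of all genes called gives the background for these counts. In heart 3 of 8 genes were called lower, where 2.49% of 14004 genes were, and 0 were called higher (2.08% of genes). In liver 2 of 8 were called lower (2.65% of 12121 genes) and 0 higher (3.37%). In spleen 1 of 10 was called lower (5.07% of 17260 genes) and 0 higher (5.4%). These 3 tissues held 6 of the 9 lower calls.

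In eyes 1 of 10 was called lower (4.68% of 19709 genes) and 1 higher (3.19%). In prostate 1 of 8 was called lower (2.67% of 15547 genes) and 0 higher (5.32%). In testes 1 of 9 was called lower (3.51% of 22378 genes) and 1 higher (2.75%). No gene was called in brain, where 3.94% of 17729 genes were called lower and 2.19% higher, or in MEFs, where 3.91% of 14824 genes were called lower and 3.82% higher. With 8 to 10 genes per tissue, a single call is a coarse share.

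Below the threshold the genes still lay mostly on one side in several tissues. All 10 genes had a lower mean in Tug1-/- heart, prostate and spleen, where 25.2%, 41.2% and 70.2% of all genes did. Of the 10, 8 had a lower mean in brain, eyes and liver, where 60.3%, 72.3% and 47.3% of all genes did. These counts include Fosb and Egr2 in heart, liver and prostate, where both were under 1 TPM, and all shares of genes are over genes with at least 1 TPM. In testes 3 of 10 (38.3% of all genes) and in MEFs 2 of 10 (40.4%) had a lower mean. Over the genes with at least 1 TPM, the median log2 ratio was -0.39 in heart, -0.57 in liver, -0.45 in spleen, -0.32 in eyes, -0.24 in prostate, -0.15 in brain, 0.23 in testes and 0.22 in MEFs. The median over all genes was 0.10 in heart, -0.11 in spleen and -0.11 in eyes, and within 0.05 of 0 elsewhere. Measured from the median of all genes, 8 of 8 genes in heart, 8 of 8 in prostate, 7 of 8 in liver, 9 of 10 in spleen, 7 of 10 in eyes and 7 of 10 in brain were lower. Nr4a1 in eyes, Egr2 in spleen and Junb in brain changed side under this centring.

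**Figure D2:**
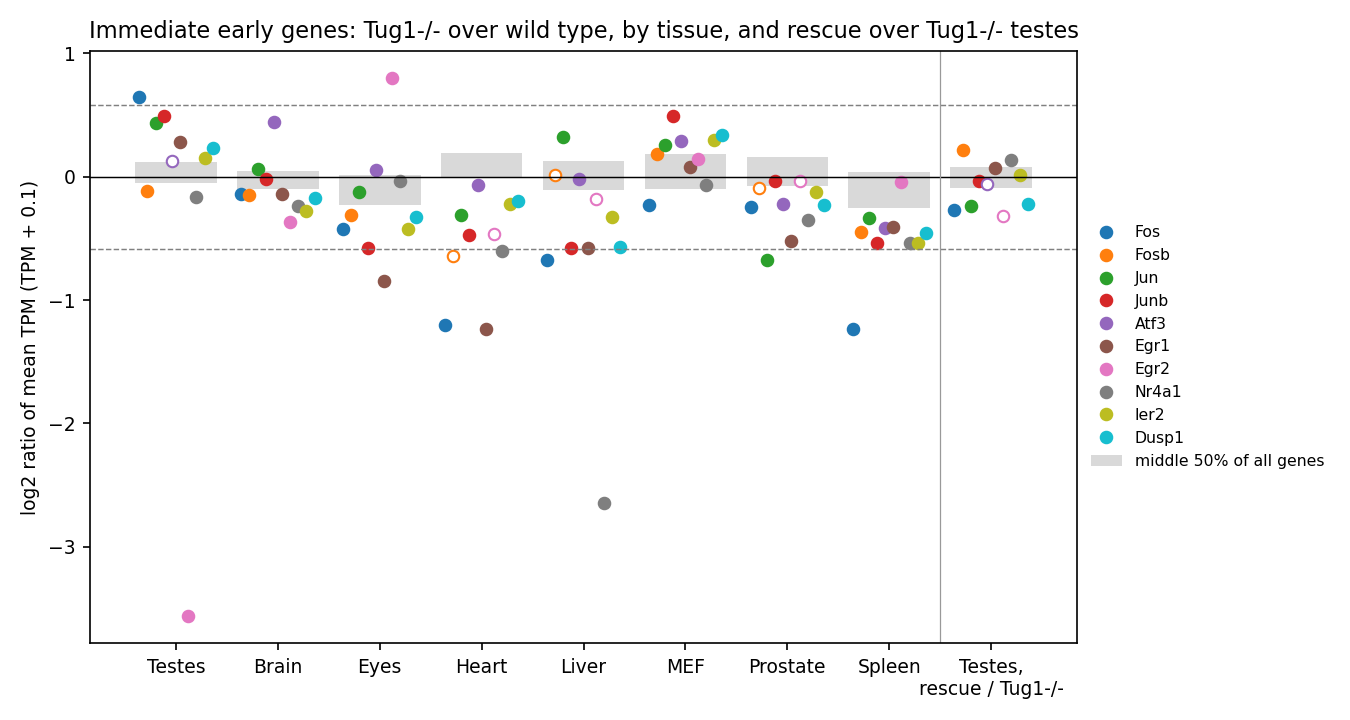
log2 ratio of mean TPM (TPM + 0.1) for each gene, Tug1-/- over wild type in 8 tissues and, right of the vertical line, rescue over Tug1-/- in testes. Open circles are genes under 1 TPM in both groups, grey boxes span the middle 50% of all genes, and dashed lines mark 1.5-fold; the lowest points are Egr2 in testes (-3.56) and Nr4a1 in liver (-2.64).

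Fos, Fosb, Jun and Junb encode subunits of AP-1, a dimeric transcription factor that pairs a Fos protein with a Jun protein. Fos (chr12:85473890-85477273) was lower in Tug1-/- in 7 of 8 tissues. Its heart level was 14.9 TPM in wild type against 6.45 TPM in Tug1-/-, or 43.1% of wild type (log2 ratio -1.20). In spleen it was 12.4 and 5.19 TPM, or 42.0% (log2 ratio -1.23). In liver it was 1.83 and 1.11 TPM, or 60.7% (log2 ratio -0.67). The ratios in heart and spleen were lower than those of all but 0.728% and 0.811% of genes there.

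The other differences in Fos were smaller. Tug1-/- eyes held 74.5% of the wild-type mean, prostate 84.1%, MEFs 85.1% and brain 90.5%. Testes was the one tissue with a higher mean, 1.24 TPM against 0.751 TPM (log2 ratio 0.65), at the lowest wild-type level of the 8 tissues.

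Fosb (chr7:19302696-19310051) was expressed at lower levels than Fos in 7 of the 8 wild-type tissues and reached 1 TPM in 5. It was 13.1 TPM against 11.8 TPM in wild-type and Tug1-/- brain, its highest site. The eyes held 2.37 and 1.89 TPM, and the spleen 1.29 and 0.917 TPM. No Fosb ratio was called. In heart its means were 0.739 and 0.438 TPM, a log2 ratio of -0.64, below the 1 TPM needed for a call.

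Jun (chr4:95049034-95052222) was called only in prostate, with 60.6 TPM in wild type against 37.9 TPM in Tug1-/- (log2 ratio -0.68). The Tug1-/- prostate mean rests on 2 samples. In heart Jun was 57.1 and 46.0 TPM, and in spleen 35.5 and 28.1 TPM. The means were higher in Tug1-/- liver (9.97 and 12.5 TPM), MEFs (100.2 and 119.7 TPM), testes (7.39 and 10.0 TPM) and brain (55.3 and 57.7 TPM). Jun was thus lower in 4 tissues and higher in 4.

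Junb was just short of 1.5-fold in both eyes and liver. Its means were 49.9 TPM in wild type against 33.4 TPM in Tug1-/- in eyes (log2 ratio -0.58), and 31.8 and 21.2 TPM in liver (log2 ratio -0.58). In spleen they were 89.8 and 62.0 TPM (log2 ratio -0.53). MEFs went the other way, with 112 TPM in wild type against 157 TPM in Tug1-/- (log2 ratio 0.49).

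Atf3 encodes a stress-induced factor of the ATF/CREB family that can pair with Jun proteins. No Atf3 ratio was called. Prostate, the highest site, held 51.3 TPM in wild type against 43.8 TPM in Tug1-/-. Spleen held 7.24 and 5.40 TPM, and MEFs 16.8 and 20.6 TPM. The highest ratio was in brain, 3.51 and 4.82 TPM, where the deposited mean normalized read count of Atf3 was 36.8, the lowest of the 10 genes in that tissue.

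Egr1 and Egr2 encode zinc-finger transcription factors that bind GC-rich sites. Egr1 (chr18:34859823-34864984) was lower in Tug1-/- in 6 of 8 tissues. In heart the means were 19.6 TPM in wild type against 8.25 TPM in Tug1-/-, or 42.1% (log2 ratio -1.24), with 0.685% of genes at a lower ratio. In eyes they were 45.9 and 25.5 TPM, or 55.6% (log2 ratio -0.85). In liver they were 7.12 and 4.73 TPM (log2 ratio -0.58), just outside the threshold. Prostate (8.19 and 5.69 TPM) and spleen (21.7 and 16.3 TPM) were also lower. Brain, the highest site, held 188 and 171 TPM. Heart was the tissue in which Egr1 and Fos both held under 50% of the wild-type mean.

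Egr2 was low in eyes, heart, liver and prostate, at under 1 TPM in wild type in each. In eyes its means were 0.994 TPM in wild type against 1.81 TPM in Tug1-/- (log2 ratio 0.80), opposite in sign to Egr1 in the same tissue. In MEFs they were 19.7 and 21.8 TPM, in brain 10.3 and 7.94 TPM and in spleen 7.96 and 7.71 TPM. None of these 3 was called. In liver and prostate its deposited mean normalized read count was 4.37 and 13.7, and these ratios rest on few reads.

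Nr4a1 (chr15:101266846-101274792) encodes an orphan nuclear receptor that acts as an early response transcription factor. It was the one gene with a lower mean in Tug1-/- in 8 of 8 tissues, 2 of them called. The liver difference was the widest outside testes, with 18.7 TPM in wild type against 2.90 TPM in Tug1-/-, or 15.6% of wild type (log2 ratio -2.64). Only 6 of the 12121 genes tested in liver had a lower ratio. Its deposited mean normalized read count in liver was 480.

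In heart Nr4a1 was 50.5 and 33.2 TPM (log2 ratio -0.61), just inside the threshold. In spleen it was 66.9 and 46.1 TPM (log2 ratio -0.53), and in prostate 49.7 and 38.9 TPM (log2 ratio -0.35). The smallest differences were in eyes, 58.8 and 57.4 TPM, and MEFs, 62.7 and 60.0 TPM. In eyes 66.0% of genes had a lower ratio than Nr4a1.

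Ier2 encodes a small nuclear protein of the early response, and no Ier2 ratio was called. Spleen, its highest site, held 93.6 TPM in wild type against 64.6 TPM in Tug1-/- (log2 ratio -0.53). Junb, 311631 bp away on chromosome 8, had the same ratio there to 2 decimals, and so did Nr4a1 on chromosome 15. Eyes held 44.5 and 33.2 TPM, and liver 28.1 and 22.4 TPM. The mean was higher in Tug1-/- MEFs, at 89.9 against 73.2 TPM.

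Dusp1 (chr17:26505590-26508519) encodes a phosphatase that switches MAP kinases off and so limits the signal that induces it. Liver held 40.1 TPM in wild type against 27.1 TPM in Tug1-/- (log2 ratio -0.57), just short of the threshold. Spleen held 51.4 and 37.4 TPM, and eyes 60.2 and 47.9 TPM. The order was reversed in MEFs, with 63.8 and 80.6 TPM. Heart, the highest wild-type site, held 73.1 and 63.8 TPM (log2 ratio -0.20). In liver the means of Fos, Junb, Egr1, Nr4a1, Ier2 and Dusp1 were thus lower in Tug1-/- and that of Jun was higher.

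In testes the widest difference was in Egr2. It averaged 9.77 TPM in wild type, 0.734 TPM in Tug1-/- and 0.569 TPM in rescue, so that Tug1-/- held 7.52% and rescue 5.82% of the wild-type mean. The log2 ratio of Tug1-/- over wild type was -3.56, and 88 of 22378 genes had a lower ratio. Epididymal secretory genes moved with it. On a list of 12 such genes, chosen after the values were seen, 11 were called lower and 1, Crisp1, higher in Tug1-/- (427, 760.5 and 0.348 TPM in wild type, Tug1-/- and rescue). Their summed mean was 5984 TPM in wild type, 811 TPM in Tug1-/- and 10.3 TPM in rescue, with 0 of the 12 listed at 0 in both wild type and Tug1-/-. Gpx5, a secreted glutathione peroxidase of the epididymis, had 1921 TPM in wild type, 0.981 TPM in Tug1-/- and 0.297 TPM in rescue. Lcn5, an epididymal lipocalin, had 680 TPM in wild type, 0.0155 TPM in Tug1-/- and 0.132 TPM in rescue. The wild-type testes mean thus held RNA of genes that mark the epididymis. Which of the 4 wild-type libraries held it cannot be read from group means, and its part in the Egr2 difference was not tested.

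Beside Egr2 on chromosome 10, the noncoding RNA Gm32255, 37767 bp away, had 5.17 TPM in wild type, 0.762 TPM in Tug1-/- and 0.162 TPM in rescue. The gene Ado, 2322 bp away, had 16.2, 15.7 and 16.4 TPM. Both were chosen after their values were seen. The difference was thus not shared by Ado, the nearer of these 2 neighbours.

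The other members differed far less in testes. Nr4a1, the most abundant there, had 45.4 TPM in wild type, 40.5 TPM in Tug1-/- and 44.5 TPM in rescue. Jun had 7.39, 10.0 and 8.48 TPM, Junb 4.65, 6.57 and 6.43 TPM, and Dusp1 9.03, 10.6 and 9.07 TPM in the same order. Egr1 had 3.40, 4.15 and 4.37 TPM. Fos had 0.751, 1.24 and 1.01 TPM. The mean of 7 of the 10 genes was thus higher in Tug1-/- than in wild type, the others being Fosb, Egr2 and Nr4a1. Skeletal muscle genes were also higher in the Tug1-/- testes mean: 5 of 5 were called higher, with a summed mean of 2.52 TPM in wild type, 36.5 TPM in Tug1-/- and 1.99 TPM in rescue, and none was listed at 0. Of these 5 genes, 4 reached 1 TPM only in Tug1-/-, where they were high, and could enter the count only by differing. Their part in the testes ratios was not tested.

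Rescue over Tug1-/- testes asked whether the transgene was accompanied by a change in these genes. Tug1 RNA of any origin was at 1.60 TPM in rescue, 0.885 TPM in Tug1-/- and 40.1 TPM in wild type. Of the 8 genes with at least 1 TPM, 0 were called higher, where 1.42% of 22180 genes were, and 0 lower, where 3.22% were. The median log2 ratio was -0.01, and 0.01 over all genes. The rescue mean lay between the other 2 means for 6 of 10 genes, and nearer to wild type than to Tug1-/- for 4 (Fosb, Jun, Nr4a1 and Dusp1). The shares of all genes for these counts were not computed, so the counts are a description and are not read as a partial rescue. Egr2, the gene furthest from wild type in Tug1-/-, was lower still in rescue. The 2 testes comparisons share the 4 Tug1-/- samples.

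**Figure D3:**
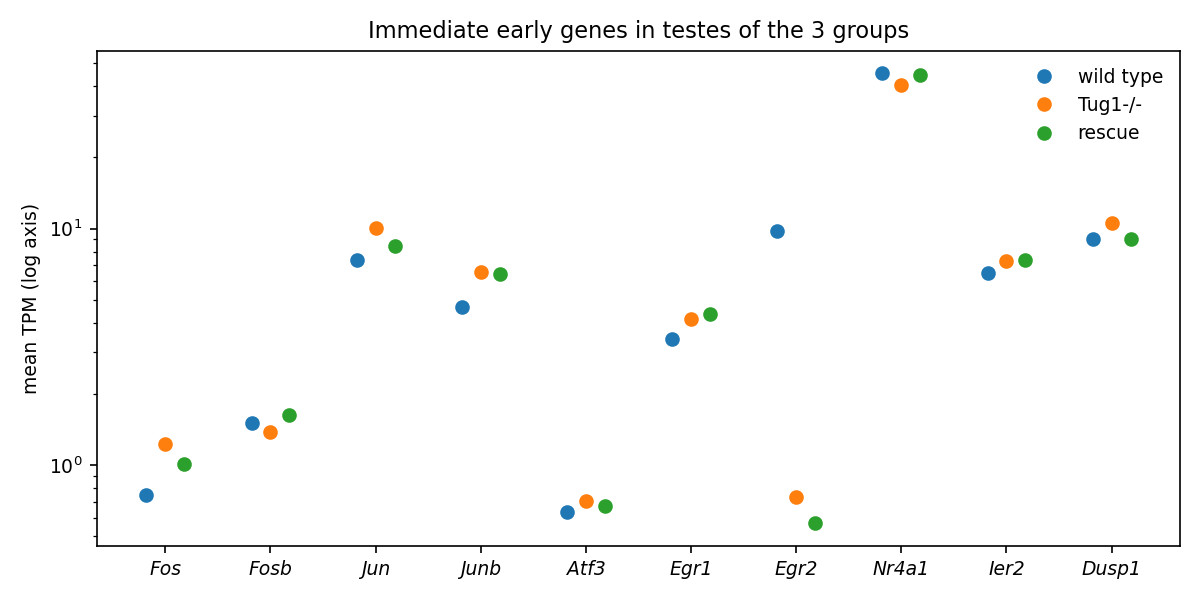
Mean TPM (log axis) of the 10 genes in testes of wild-type (4 samples), Tug1-/- (4 samples) and rescue (3 samples) mice; the points are group means and no error bars are drawn. Egr2 is at 9.77 TPM in wild type against below 1 TPM in the other 2 groups, and the 3 means of each other gene are at most 1.65-fold apart.

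A wider list of 46 other immediate early genes had positive medians in heart, liver and prostate, where the 10 genes had negative ones. The median over all genes was 0.10 in heart, 0.01 in liver and 0.04 in prostate, so in heart the list lay near all genes. In heart 6 of 44 were called higher and 3 lower, with a median log2 ratio of 0.11. In liver 6 of 36 were called higher and 6 lower, with a median of 0.22. Klf10, a zinc-finger factor, was lower in Tug1-/- liver as Nr4a1 was, with 35.6 TPM against 13.5 TPM, and so was Cyr61, a matricellular protein, with 20.5 and 10.0 TPM. Gadd45g, a growth arrest and DNA damage response gene, lay on the other side, with 12.0 and 39.7 TPM, as did Ctgf, a matricellular protein (5.77 and 16.1 TPM), and Cebpd, a bZIP factor (1.39 and 3.26 TPM). The called genes of this list in liver thus lay on both sides.

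In heart the largest called ratios on this list were those of Egr3 (1.42 and 0.727 TPM), Ctgf (59.3 and 104.6 TPM), Gadd45b (5.31 and 8.93 TPM), Cebpb (9.63 and 16.1 TPM) and Cebpd (5.83 and 9.40 TPM). Egr3, a relative of Egr1, was the one of these 5 that was lower. Egr3 in heart, and of the genes named next Npas4 in spleen, Dusp2 in eyes and Phlda1 in testes, reached 1 TPM only in the genotype in which they were high, so they could enter the counts only by differing. In spleen 4 of 44 were called lower and 2 higher, with a median of -0.20. Cyr61 had 62.6 and 29.5 TPM there, Plk2 10.1 and 6.12 TPM, Dusp5 25.2 and 15.8 TPM, Errfi1 29.7 and 50.6 TPM, and Npas4 0.540 and 1.20 TPM.

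In eyes 4 of 45 were called higher and 1 lower, with a median of -0.10 against -0.11 over all genes. Nr4a3, a receptor related to Nr4a1, had 3.58 and 6.64 TPM there, Gadd45g 47.0 and 81.3 TPM, Cebpd 6.81 and 10.7 TPM, Dusp2 0.890 and 1.45 TPM, and Cyr61 75.0 and 47.0 TPM. In prostate 3 of 41 were called higher and 0 lower, with a median of 0.12, and these were Nr4a3 (2.51 and 8.24 TPM), Dusp4 (3.81 and 10.9 TPM) and Ctgf (15.5 and 33.4 TPM). Nr4a3 was thus called higher in eyes and prostate, where Nr4a1 was not called and had lower means.

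In MEFs 3 of 44 were called higher and 0 lower, with a median of 0.22, and these were Fosl1, an AP-1 subunit (32.8 and 60.4 TPM), Cebpb (16.1 and 25.3 TPM) and Myc (75.0 and 117 TPM). In testes 2 of 43 were called higher, Socs3 (1.5 and 2.40 TPM) and Gadd45b (4.78 and 7.29 TPM), and 1 lower, Phlda1 (2.85 and 0.517 TPM), with a median of 0.13. In brain 0 of 46 and in rescue over Tug1-/- testes 0 of 41 were called, with medians of -0.08 and -0.04.

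Of 24 regulators of these genes, among them serum response factor and its partners, CREB family members and MAP kinases, 0 were called in any of the 9 comparisons, and their median log2 ratios ran from -0.19 in spleen to 0.11 in heart. A list of 6 circadian clock genes, the Period genes among them, had 2 called higher in heart, 2 higher in prostate and 0 elsewhere.

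The median log2 ratio of 10 heat shock genes was above that of all genes in each of the 9 comparisons, and opposite in sign to that of the immediate early genes in heart, liver, prostate, spleen, eyes and brain and, at values near 0, in rescue over Tug1-/- testes. Of the 10 heat shock genes, 7 were called higher in Tug1-/- liver, 5 in prostate, 5 in spleen and 3 in heart, with 0 lower. Hspa1a in liver reached 1 TPM only in Tug1-/-, where it was high, so it could enter the count only by differing. The median log2 ratio of this list was 0.64 in liver, 0.58 in spleen, 0.56 in prostate and 0.45 in heart, and smaller in eyes (0.14), MEFs (0.12), testes (0.05), brain (0.03) and rescue over Tug1-/- testes (0.03). In liver Hspa1b, an inducible chaperone, had 4.38 TPM in wild type against 13.4 TPM in Tug1-/-, and Hsph1, a cochaperone, had 10.3 and 26.0 TPM. In testes 1 was called, and in eyes, brain, MEFs and rescue over Tug1-/- testes 0 were called.

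**Figure D4:**
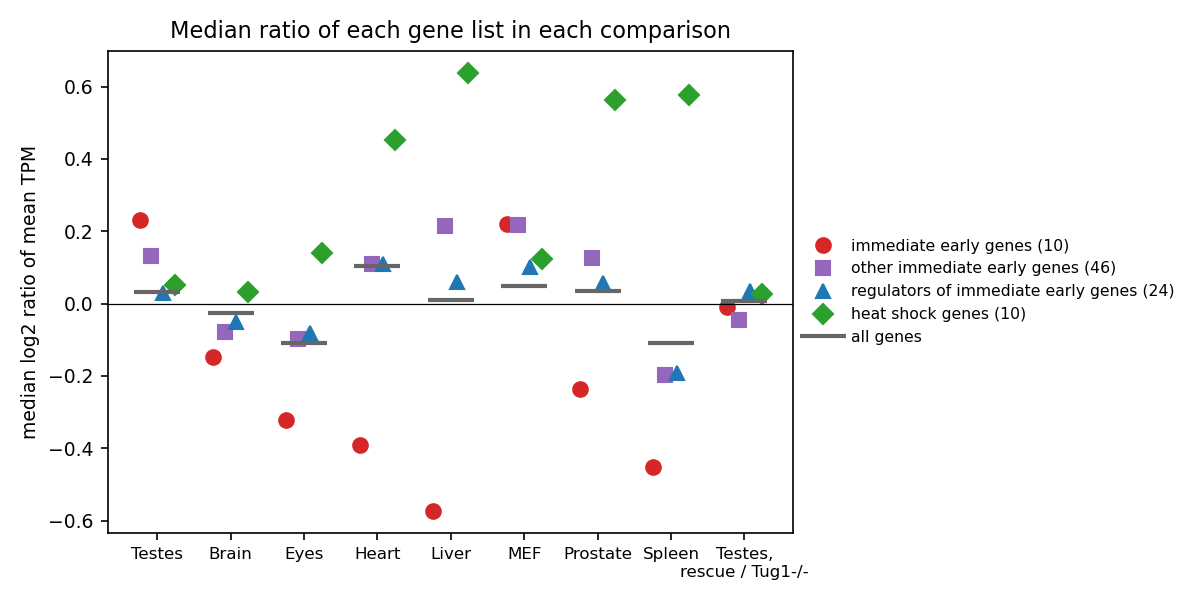
Median log2 ratio of mean TPM of 4 gene lists (genes with at least 1 TPM) and of all genes (grey bars) in each comparison. The 10 immediate early genes lie below the grey bar in 6 tissues, most in liver (-0.57), and above or near it in the other comparisons; heat shock genes lie above it in all 9 comparisons.

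Markers of other cells also differed between genotypes. In spleen 5 of 5 erythroid genes were called higher in Tug1-/-, with a summed mean of 24890 TPM in wild type against 44740 TPM in Tug1-/-, and 4 of 5 neutrophil genes were called higher (1623 and 3235 TPM). In eyes 5 of 5 erythroid (699 and 2179 TPM) and 5 of 5 skeletal muscle genes (4391 and 7874 TPM) were called higher. In prostate 7 of 9 macrophage genes were called higher (280.1 and 442 TPM), as were 4 of 5 erythroid genes (161 and 292 TPM). In heart 3 of 5 skeletal muscle genes were called lower, with Myh4 at 4.24 TPM in wild type against listed at 0 in Tug1-/-, against a summed mean of 1282 and 1377 TPM. In liver 2 of 9 macrophage genes were called higher (312 and 471 TPM), as were 2 of 3 neutrophil genes (3.49 and 5.17 TPM). In eyes 2 of 3 neutrophil genes were called higher and 1 lower (9.54 and 20.5 TPM), and in spleen 1 of 1 skeletal muscle gene was called lower (5.11 and 3.52 TPM). In brain 5 of 5 neutrophil genes were called lower (19.1 and 2.27 TPM). Of the markers present in these tables, none was listed at 0 in both genotypes. Endothelial genes were not called in these 6 tissues or in testes, and 1 was called higher in MEFs. Of smooth muscle genes 2 of 5 were called higher in testes, 2 of 4 in liver and 1 of 5 in eyes, and 1 of 5 was called lower in MEFs and in rescue over Tug1-/- testes. Of macrophage genes 1 of 9 was called higher in testes, eyes, heart and spleen, and in MEFs 2 of 8 were called higher and 1 lower. Of erythroid genes 4 of 5 were called lower in testes (47.3 and 39.6 TPM). Of fibroblast genes 1 of 6 was called higher in liver and in prostate and 1 of 6 lower in spleen. These counts, and that of the epididymal genes, include genes that reached 1 TPM only in the genotype in which they were high. The part of these cells in the ratios of the 10 genes was not tested.

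Across the 8 tissues the log2 ratios of the 10 genes were positively correlated in 34 of 45 pairs of genes, with a median Pearson r of 0.49 (n = 8 tissues). With testes left out this was 40 of 45 pairs, with a median of 0.45 (n = 7 tissues). All genes of a tissue share its libraries, and the correlations are given as a description. The share of positive pairs over all genes was not computed. Ratios under 1 TPM, such as those of Fosb and Egr2 in liver, are included. The 5 genes most like the mean ratio of the 10 genes, of 9732 genes with at least 1 TPM in each tissue, were Nek8 (r = 0.96), Fcf1 (r = 0.92), A330069E16Rik (r = 0.91), Gm22121 (r = 0.91) and Gm11423 (r = 0.91), each over n = 8 tissues. The ratios of Nek8, a protein kinase, were small, from -0.19 in liver to 0.07 in MEFs, against -0.52 and 0.18 for the mean of the 10 genes. In testes this mean was -0.15 because it includes Egr2 at -3.56, whereas the median of the 10 genes there was 0.19. The likeness in testes is therefore to a mean set by Egr2 and not to most of the genes.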

How the data were processed

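RNA was prepared from frozen tissues and MEFs, selected for poly(A) and sequenced. Of 52 samples, 46 lie behind the means used, and 6 samples of F1 hybrid testes were not used. The authors aligned reads with STAR to GRCm38, counted unique reads per gene with featureCounts, and left out any gene that did not reach 3 reads in at least 1 replicate, and the submitters' processing notes also name CASAVA 1.8.2. Strand use in counting is not given in the sources used here. The authors deposited TPM as 1 mean per group and gene for testes. For the other 7 tissues, stacked in 1 table, the deposited signal is the mean TPM per group together with a mean normalized read count per gene. The tables hold 0 further columns of single samples. The authors also deposited the log2 fold changes, standard errors, test statistics, p-values and adjusted p-values of their own comparisons, made with DESeq2, and these were not used.

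Ratios were computed in Python 3.11.15 with pandas 2.3.3 and numpy 2.4.6, and figures with matplotlib 3.10.9, from group means with a pseudocount of 0.1 TPM, a call at 1.5-fold and a minimum of 1 TPM in either group. Genes were joined by Ensembl identifier. The call rule was run on simulated 2-fold changes with little noise, in genes of at least 5 TPM. Such changes pass 1.5-fold by design, so this checks the code and not the error of the calls. The members, gene lists and rules were chosen with earlier results of these data known, and the epididymal list, the neighbours of Egr2 and the setting without testes after the values were seen. Named genes are the members, the 5 largest called ratios per comparison on the list of other immediate early genes, called regulators, the 5 genes most like the members' mean ratio, and Tug1. Outside this rule, Hspa1b, Hsph1, Gpx5, Lcn5, Crisp1 and Myh4 were chosen as examples after their values were seen. Alternatives were pseudocounts of 1 and 0.01 TPM, centring on the median of all genes, no minimum or 5 TPM, thresholds of 2-fold and 5/4-fold, and leaving out brain, prostate or testes.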

Additional observations from a re-analysis of the deposited data

How the results depend on the processing

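Expression was available as group means only, so no replicate could be left out and depth per sample is unknown. The ratios are given without an error, since the authors' own standard errors and p-values were not used here. No paired analysis was possible because the columns used carry no replicate numbers. Counts refer to the 2 higher and 9 lower calls over all tissues. The number of higher calls was 0 with a pseudocount of 1 TPM, 0 with a minimum of 5 TPM, 0 with a fold of 2, 8 with a 5/4-fold threshold and 1 without testes, a setting added after the data were seen. The number of lower calls was 5 with a fold of 2 and 29 with 5/4-fold, and stayed within 1.5 times 9 under the other settings. Counts for rescue over Tug1-/- testes stayed at 0 under the 7 settings run. The median log2 ratio of the members moved by 0.1 or more in 5 cases. With median centring it was -0.21 in eyes, -0.49 in heart and -0.34 in spleen. In liver it was -0.45 with no minimum and -0.46 with a pseudocount of 1 TPM. The sign of a called ratio could not change under these settings, so it is no check. A pseudocount is added to both means, and centring moved ratios by at most 0.11, less than the 1.5-fold threshold.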
